A study of Mus musculus with 2 samples.

Results

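The 50 genes described here serve the making, sensing, export and storage of lipids. They were taken by gene symbol from a list of enzymes and regulators of cholesterol and fatty acid metabolism, by a rule that uses no measured value, although the list was drawn up with earlier results of these data known. The annotation of the array named a probe group with exactly 1 symbol for 47 of the 50, out of 19938 genes in all. Each such gene was given the mean log2 value over its transcript clusters, each a set of probes laid out along 1 gene or a piece of it. The expression of Nr1h2, Acsl1 and Acsl3 was not analysed here.

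Cells obtain cholesterol by making it from acetyl-CoA or by taking it up from lipoproteins. When membranes of the endoplasmic reticulum run low in sterol, the transcription factors called sterol regulatory element-binding proteins (SREBPs) are released and switch on the synthesis genes. When sterol accumulates, oxidized cholesterol activates the liver X receptors (LXRs), which switch on genes of cholesterol export. Microglia, the resident macrophages of the brain, take up lipid-rich debris and myelin and must export or store the cholesterol and fatty acids that these contain.

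BV2, an immortalized line derived from mouse microglia, was plated in DMEM/F12, and on the following day the medium was exchanged for DMEM or fresh DMEM/F12. Total RNA was collected after 1 d, although the labels speak of an incubation longer than that, and each RNA was hybridized to 1 Affymetrix Mouse Gene 1.0 ST array. The comparison asks which transcripts differ in DMEM/F12, which the study calls a high-nutrient medium. The DMEM was of the high glucose kind, and the study does not give the glucose content of DMEM/F12. Serum was present in both media, and the study lists linoleic acid, lipoic acid, biotin, vitamin B12, hypoxanthine, nonessential amino acids and metal ions among the components of DMEM/F12 that DMEM lacks. Linoleic acid is a polyunsaturated fatty acid, lipoic acid is a cofactor of mitochondrial dehydrogenases, and biotin is the cofactor of the acetyl-CoA carboxylases described further on. The DMEM cells were therefore cells taken out of DMEM/F12 for the last day, and each medium is represented by 1 culture of 1 line.

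No medium was measured on a second array, so replicate error is unknown, no test was possible, no p-value was calculated, and each difference compares these arrays alone. All differences are log2 values in DMEM/F12 minus log2 values in DMEM. The medians over all clusters were 4.75 in DMEM against 4.77 in DMEM/F12, and the log2 differences of the 13225 genes above background had a SD of 0.22. Background was the 95th percentile of 1248 clusters of sensory receptor genes, 4.15 on the DMEM array and 4.17 on the DMEM/F12 array, and a gene is called above background where it exceeds this on at least 1 array. Of 12 measured microglia and macrophage markers, 10 were above background on both arrays, whereas Aif1 and P2ry12 were below it on both. Of the 12 markers, 6 were higher, 5 lower and 1 equal, with log2 differences from -0.66 for the microglial marker Tmem119 (6.71 in DMEM against 6.05 in DMEM/F12) to 0.40 and a median of 0.005. Of other cell types, 1 of 6 astrocyte and 2 of 6 neuron markers were above background on at least 1 array. So were 4 of 5 oligodendrocyte (Olig2 in DMEM alone) and 2 of 4 adipocyte markers. The adipocyte hormone genes Adipoq and Lep were not. Of all 19938 genes, 13225 passed this call, so passing it says little about cell type. Over the 5 measured oligodendrocyte markers the mean log2 value was 4.46 on each array, not far above background. Over the 12 microglia and macrophage markers the mean was 7.99 (DMEM) and 7.93 (DMEM/F12). In RNA of a whole culture, fewer cells that express a gene and less RNA per cell cannot be told apart.

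Most lipid genes lay close together on the arrays, and more of them had a lower than a higher value in DMEM/F12. Of the 47 measured genes, 32 (68.1%) had a lower value in DMEM/F12, where 45.5% of all genes did, and 15 (31.9%) had a higher value, where 47.2% of all genes did. Since values were deposited with 2 decimals, some genes had equal values, and the share of all genes with a lower value was 49.2 to 54.2% when the arrays were scaled by other methods, under each of which all 47 lipid genes kept their sign. The median log2 difference of the lipid genes was -0.06, with quartiles of -0.195 and 0.035 and a range from -0.52 to 0.43, beside a median of 0.00 and quartiles of -0.14 and 0.15 for all genes. No lipid gene reached 1.5-fold in either direction, a size that 0.928% of all genes reached upward and 0.727% downward. At 1.2-fold, 3 of the 47 genes (6.38%) were higher, against 11.2% of all genes, and 6 (12.8%) were lower, against 10.5%, but 1 of the 6, Scd1, lay below background on both arrays.

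The shift was thus one of many small differences rather than of a few large ones. Among the 44 lipid genes above background, 17 (38.6%) had a difference of -0.13 or less, where 26.2% of the genes above background had, and 6 (13.6%) had a difference of 0.14 or more, where 25.8% had. In the outermost 5% on either side the lipid genes were 3 low and 3 high, or 6.82% each, close to the 5.08% and 5.22% of genes above background found there. The 3 high genes were Insig1, Mvd and Acss2, and the 3 low genes Cpt1a, Dgat2 and Nr1h3. The former serve cholesterol synthesis, its control and the making of acetyl-CoA, and the latter fatty acid entry into mitochondria, triglyceride storage and LXR signaling. With 3 genes on each side, these ends do not describe those functions as a whole.

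**Figure D1:**
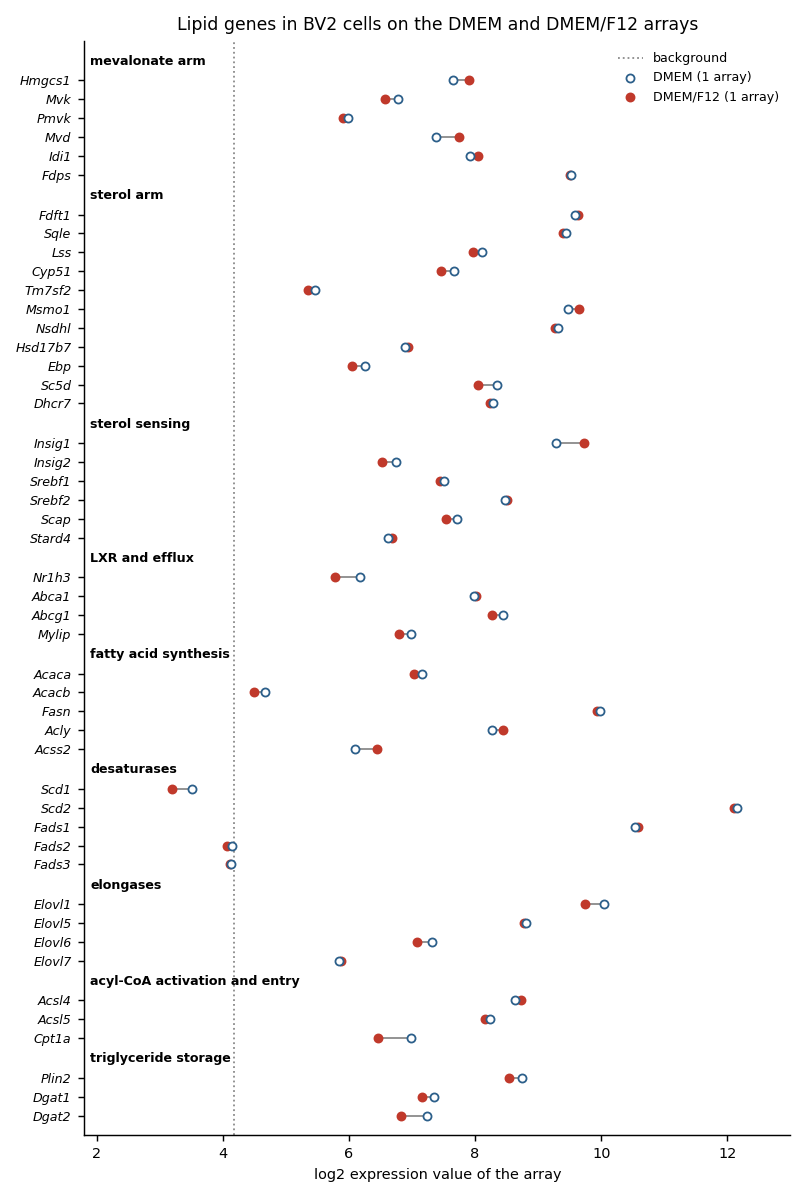
Log2 expression value (x axis) of each of the 47 measured lipid genes (y axis, grouped by role) with an open circle for the DMEM array and a red circle for the DMEM/F12 array, each point being 1 array, with a dotted line at the DMEM/F12 background of 4.17. The circles of most genes nearly touch, Insig1, Mvd and Acss2 are displaced to the right in DMEM/F12, Cpt1a, Dgat2 and Nr1h3 to the left, and Scd1, Fads2 and Fads3 lie under the dotted line.

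To show the DNA before the genes at both ends of this range, the 250 bases ahead of the annotated start are given for the 4 highest and the 4 lowest lipid genes above background. They are RefSeq sequences of the mouse build GRCm38.p6, printed 5' to 3' on the strand of the gene, and the arrays carry no measurement of them. Capitals mark matches, on either strand, to the sterol regulatory element TCACCCCAC that SREBPs bind, to CCAAT, bound by the SREBP partner NF-Y, and to the E-box CACGTG, which is a palindrome. Where CCAAT lies on the opposite strand, it is printed as its reverse complement ATTGG.
Insig1 (chr5:28071162-28071411, plus strand): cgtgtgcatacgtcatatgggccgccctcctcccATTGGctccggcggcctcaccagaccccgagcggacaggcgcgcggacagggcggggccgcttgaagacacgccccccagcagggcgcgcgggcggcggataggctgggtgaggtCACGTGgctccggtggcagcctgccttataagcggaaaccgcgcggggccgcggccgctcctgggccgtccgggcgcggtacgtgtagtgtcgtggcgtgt
Mvd (chr8:122443423-122443672, minus strand): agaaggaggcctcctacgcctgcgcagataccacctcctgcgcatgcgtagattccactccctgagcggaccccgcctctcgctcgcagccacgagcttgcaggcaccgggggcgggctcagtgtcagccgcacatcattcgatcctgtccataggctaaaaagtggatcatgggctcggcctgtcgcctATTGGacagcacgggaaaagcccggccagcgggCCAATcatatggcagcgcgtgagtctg
Acss2 (chr2:155517793-155518042, plus strand): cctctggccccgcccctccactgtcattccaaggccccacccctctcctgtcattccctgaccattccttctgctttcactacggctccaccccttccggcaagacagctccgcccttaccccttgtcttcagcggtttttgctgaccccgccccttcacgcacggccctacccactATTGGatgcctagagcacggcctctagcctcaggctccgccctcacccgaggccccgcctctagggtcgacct
Hmgcs1 (chr13:119690101-119690350, plus strand): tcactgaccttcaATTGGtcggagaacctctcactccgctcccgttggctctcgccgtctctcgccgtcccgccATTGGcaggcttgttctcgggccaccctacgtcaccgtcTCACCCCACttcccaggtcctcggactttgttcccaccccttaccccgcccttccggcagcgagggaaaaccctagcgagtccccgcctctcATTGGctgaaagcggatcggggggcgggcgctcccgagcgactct
Cpt1a (chr19:3323051-3323300, plus strand): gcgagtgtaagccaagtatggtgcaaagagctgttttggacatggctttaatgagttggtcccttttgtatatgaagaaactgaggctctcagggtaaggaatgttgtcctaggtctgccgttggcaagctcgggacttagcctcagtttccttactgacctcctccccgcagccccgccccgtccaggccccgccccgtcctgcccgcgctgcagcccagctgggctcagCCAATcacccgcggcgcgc
Nr1h3 (chr2:91195117-91195366, minus strand): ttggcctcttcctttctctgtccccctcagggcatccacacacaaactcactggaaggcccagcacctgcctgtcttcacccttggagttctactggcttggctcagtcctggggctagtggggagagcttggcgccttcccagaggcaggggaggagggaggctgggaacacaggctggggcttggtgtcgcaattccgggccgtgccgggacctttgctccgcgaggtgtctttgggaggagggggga
Sc5d (chr9:42264301-42264550, minus strand): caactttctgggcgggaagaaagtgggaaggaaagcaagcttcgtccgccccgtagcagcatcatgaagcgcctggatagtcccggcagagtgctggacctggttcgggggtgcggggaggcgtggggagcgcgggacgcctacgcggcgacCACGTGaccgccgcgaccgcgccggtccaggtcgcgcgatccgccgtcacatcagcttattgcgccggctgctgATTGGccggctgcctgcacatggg
For Nr1h3 the first of its listed windows is shown, and Dgat2 had no entry. The exact sequence TCACCCCAC was found in the Hmgcs1 window, 137 bases before the start, and in no other of these 7. A CCAAT box lay 237, 176 and 45 bases before the start of Hmgcs1, 60 and 27 before that of Mvd, 73 before that of Acss2, 216 before that of Insig1, 24 before that of Sc5d and 19 before that of Cpt1a. E-boxes were found 101 bases before the start of Insig1 and 98 before that of Sc5d. The Nr1h3 window held none of the motifs.

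Over the whole set, 40 of the 50 genes had windows, 51 in number, each reaching 50 bases past the start. CCAAT was present in 32 of the 51 (62.7%), against 37.4% of all 32851 windows. The latter belong to 27025 genes whatever their level in these cells, while 44 of the 47 measured lipid genes were above background. Windows of expressed genes alone were not compared. Of the 14 cholesterol synthesis genes with a window, all 14 had at least 1 window with CCAAT, and 17 of the 26 other lipid genes (65.4%) did, beside 41.1% of all genes. CACGTG was present in 9 windows (17.6%), against 7.15% of all. TCACCCCAC was present in 2 windows (3.92%), those of Hmgcs1 and Acsl1, against 0.551% of all. The LXR element DR4, searched for as an exact pair of AGGTCA spaced 4 bases apart on either strand, was in none of the 51 windows. It was in 5 of all 32851 windows (0.0152%), too few for its absence from 51 to say anything about the lipid genes. A match is a run of letters and not a measured binding site. Variants of the motifs were not searched for, so a window without a match may still hold a site. Here CCAAT lay before genes with higher values such as Mvd and before genes with lower values such as Sc5d.

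**Figure D2:**
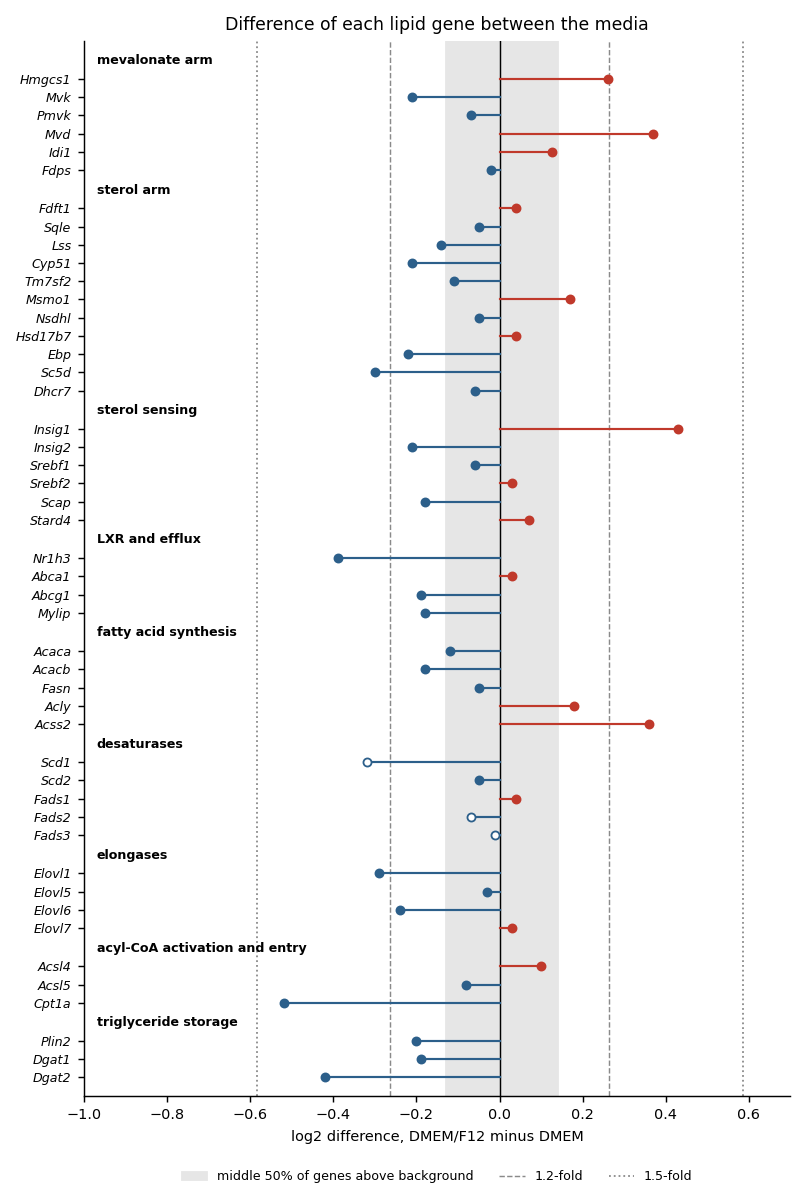
Difference in log2 value along the x axis (DMEM/F12 minus DMEM) for the 47 lipid genes (y axis, grouped by role), red where higher and blue where lower in DMEM/F12, with open circles for the 3 genes not above background; the gray band is the middle 50% of genes above background, and dashed and dotted lines mark 1.2-fold and 1.5-fold. All points lie inside the 1.5-fold lines, from -0.52 for Cpt1a to 0.43 for Insig1, and all 3 storage genes lie left of 0.

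The mevalonate arm, which turns acetyl-CoA into the isoprenoid farnesyl diphosphate, had the highest median of the groups, 0.05 on the log2 scale, with 3 of 6 genes higher and 3 lower in DMEM/F12. Its larger differences were upward. Hmgcs1, which encodes the cytosolic HMG-CoA synthase at the head of the pathway, had a log2 value of 7.65 in DMEM against 7.91 in DMEM/F12, a difference of 0.26. Mvd, the mevalonate diphosphate decarboxylase, had 7.38 in DMEM against 7.75 in DMEM/F12, or 1.29-fold higher, and was the only gene of the arm past 1.2-fold. Idi1, the isomerase of the isoprenoid unit, was read by 2 clusters, which differed by 0.14 and 0.11.
The kinases that come between these enzymes went the other way or stayed level. Mvk, the mevalonate kinase, had 6.78 in DMEM against 6.57 in DMEM/F12, a log2 difference of -0.21. Pmvk, the next kinase, had 5.98 and 5.91, and Fdps, which makes farnesyl diphosphate, 9.52 and 9.50 in DMEM and DMEM/F12, so that both lay within the middle 50% of genes above background.

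The sterol arm, which joins farnesyl units to squalene and shapes it into cholesterol, tended to lower values. Of its 11 genes, 8 (72.7%) were lower, where 45.5% of all genes were, and 3 were higher. The median log2 difference of the arm was -0.06. Sc5d, a late desaturase of the sterol ring, had a log2 value of 8.34 in DMEM against 8.04 in DMEM/F12, 1.23-fold lower, and was its only gene past 1.2-fold. Ebp, the sterol isomerase, had 6.26 in DMEM against 6.04 in DMEM/F12, a difference of -0.22. Cyp51, the lanosterol demethylase, had 7.67 in DMEM against 7.46 in DMEM/F12, a difference of -0.21. These 3 enzymes act after squalene has been closed to a ring, as does the methyl oxidase Msmo1, which had the highest difference of the arm at 0.17, with 9.48 in DMEM against 9.65 in DMEM/F12.
The first enzymes of the arm were nearly level. Fdft1, the squalene synthase, had a log2 value of 9.59 in DMEM against 9.63 in DMEM/F12, and each of its 2 clusters differed by 0.04. Sqle, the squalene epoxidase and a control point of the pathway, had 9.44 in DMEM against 9.39 in DMEM/F12. Lss, which closes the ring, had 8.11 in DMEM against 7.97 in DMEM/F12, a difference of -0.14, just beyond the middle 50% of genes above background. Of the remaining enzymes, which trim and reduce the ring, the reductase Tm7sf2 differed by -0.11 (5.46 in DMEM against 5.35 in DMEM/F12), the decarboxylase Nsdhl by -0.05, the ketoreductase Hsd17b7 by 0.04 and Dhcr7, which makes cholesterol in the last step, by -0.06. The highest differences of the synthesis genes were thus found before farnesyl diphosphate and the lowest ones after squalene, with Mvk and Msmo1 as exceptions.

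Among the genes that sense sterols, the 2 Insig genes differed in opposite directions. Their products hold the SREBPs and their escort in the endoplasmic reticulum while sterols are plentiful, and Insig1 is itself a target gene of the SREBPs. Insig1 had a log2 value of 9.29 in DMEM against 9.72 in DMEM/F12, 1.35-fold higher and the highest difference of all 47 lipid genes, exceeded by 2.58% of genes above background. Insig2 had 6.74 in DMEM against 6.53 in DMEM/F12, a difference of -0.21, which is 0.64 below that of Insig1. Both genes had a promoter window with a CCAAT box.
The transcripts of the transcription factors themselves were level, and the release of their proteins was not measured. Srebf1, whose products favor fatty acid genes, had a log2 value of 7.51 in DMEM against 7.45 in DMEM/F12. Srebf2, which favors cholesterol genes, had 8.48 in DMEM against 8.51 in DMEM/F12. Scap, the escort that carries them to the Golgi, had 7.72 in DMEM against 7.54 in DMEM/F12, a difference of -0.18. Stard4, a carrier of cholesterol between membranes, had 6.62 in DMEM against 6.69 in DMEM/F12. The group of 6 was split evenly, 3 higher and 3 lower, with a median of -0.015.

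The LXR and efflux genes were lower in DMEM/F12 in 3 of 4 measured cases, with a median log2 difference of -0.185. Nr1h3, which encodes LXRα, had a log2 value of 6.17 in DMEM against 5.78 in DMEM/F12, 1.31-fold lower, and 3.30% of genes above background had a lower difference. Abcg1, which passes cholesterol to mature high-density lipoprotein, had 8.45 in DMEM against 8.26 in DMEM/F12, a difference of -0.19. Mylip, a ubiquitin ligase that marks lipoprotein receptors for breakdown, had 6.98 in DMEM against 6.80 in DMEM/F12, a difference of -0.18. Abca1, which loads cholesterol onto lipid-poor apolipoproteins, was the exception with 7.98 in DMEM against 8.01 in DMEM/F12, so that the difference of Abca1 was 0.22 above that of Abcg1, although both are known LXR targets.
A list of 10 known LXR targets takes in Abca1, Abcg1, Mylip, Nr1h3, Srebf1, Scd1 and Scd2 from the set. Of the 10, 7 (70.0%) were lower, where 45.5% of all genes were, 2 were higher and 1 equal, with a median of -0.12. The lower genes include Scd1, which is not above background, and the median was -0.06 over the 9 genes above background and -0.055 with values raised to background. Its lowest gene was Lpcat3, which places polyunsaturated fatty acids into phospholipids, with a log2 value of 9.57 in DMEM against 8.94 in DMEM/F12, 1.55-fold lower. Lpcat3 lay beyond every gene of the 47, and 0.355% of genes above background had a lower difference. It was the only lower gene of the list outside the set of 50, since the remaining targets outside the set differed by 0.00 and 0.04.

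Of the 5 genes that build fatty acids, 2 had higher and 3 had lower values in DMEM/F12. Acss2, which makes acetyl-CoA from acetate, had a log2 value of 6.09 in DMEM against 6.45 in DMEM/F12, 1.28-fold higher and exceeded by 4.57% of genes above background. Acly, which makes it from citrate, had 8.27 in DMEM against 8.45 in DMEM/F12, a difference of 0.18. Acaca and Acacb encode the acetyl-CoA carboxylases, which need biotin and commit the carbon to malonyl-CoA, and they differed by -0.12 and -0.18. The 2 clusters of Acaca read -0.20 (6.67 in DMEM against 6.47 in DMEM/F12) and -0.04 (7.63 and 7.59), and Acacb had 4.67 in DMEM against 4.49 in DMEM/F12, not far above background. Fasn, the synthase that extends malonyl-CoA to palmitate, had 9.98 in DMEM against 9.93 in DMEM/F12. The median of the 5 genes was -0.05.

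The desaturases, which put double bonds into fatty acids, showed little difference where they could be measured. Scd2, the stearoyl-CoA desaturase of brain, had a log2 value of 12.16 in DMEM against 12.11 in DMEM/F12. Fads1, the delta-5 desaturase that acts on products of linoleic acid, had 10.54 in DMEM against 10.58 in DMEM/F12. Scd1, the isoform of liver and fat, had 3.51 in DMEM against 3.19 in DMEM/F12, below background on both arrays, so that its difference of -0.32 is one between readings of background, and it became 0.02 when both values were raised to background. Fads2, the delta-6 desaturase that acts on linoleic acid itself, had 4.14 in DMEM against 4.07 in DMEM/F12, and Fads3 had 4.13 and 4.12, likewise not above background on either array.

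The elongases, which lengthen fatty acids by steps, were lower in 3 of 4 cases, and their median log2 difference was -0.135. Elovl1, which makes very long saturated chains, had 10.04 in DMEM against 9.75 in DMEM/F12, 1.22-fold lower. Elovl6, which takes palmitate to stearate, had 7.32 in DMEM against 7.08 in DMEM/F12, a difference of -0.24. Elovl5, which acts on polyunsaturated chains, had 8.80 in DMEM against 8.77 in DMEM/F12, and Elovl7, which also acts on saturated long chains, had 5.84 in DMEM against 5.87 in DMEM/F12. Elovl1 and Elovl6 thus lay below the middle 50% of genes above background, and Elovl5 and Elovl7 inside it.

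Cpt1a had the lowest difference of the whole set. It encodes the carnitine palmitoyltransferase of the outer mitochondrial membrane, which admits long-chain fatty acids to oxidation and is blocked by the malonyl-CoA that the acetyl-CoA carboxylases make. Its log2 value was 6.98 in DMEM against 6.46 in DMEM/F12, 1.43-fold lower, and 0.998% of genes above background had a lower difference. The acyl-CoA synthetases, which activate fatty acids for any further use, lay near 0. Acsl4, which prefers arachidonic acid, had 8.63 in DMEM against 8.73 in DMEM/F12, a difference of 0.10. Acsl5 had 8.24 in DMEM against 8.16 in DMEM/F12, a difference of -0.08.

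All 3 genes of triglyceride storage were lower in DMEM/F12, where 45.5% of all genes were, and their median log2 difference was -0.20. A group of 3 genes is too small for its direction to be read as a trait. Dgat2 and Dgat1 encode unrelated enzymes that add the last acyl chain to make triglyceride. Dgat2 had a log2 value of 7.24 in DMEM against 6.82 in DMEM/F12, 1.34-fold lower, and 2.51% of genes above background had a lower difference. Dgat1 had 7.35 in DMEM against 7.16 in DMEM/F12, a difference of -0.19, which is 0.23 above that of Dgat2. Plin2, which coats lipid droplets and is a common mark of lipid loading in macrophages, had 8.74 in DMEM against 8.54 in DMEM/F12, a difference of -0.20.

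**Figure D3:**
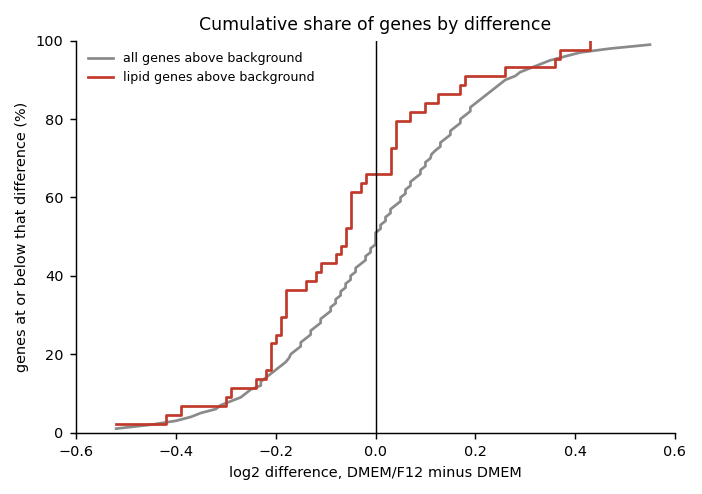
Share of genes in percent (y axis) at or below a given log2 difference between the media (DMEM/F12 minus DMEM, x axis), in red for the 44 lipid genes above background and in gray for the 13225 genes above background, 1 array per medium. The red line runs left of the gray line between about -0.2 and 0.2, where 65.9% of lipid genes but 47.4% of genes above background lie below 0, and the lines come together toward both ends.

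Lipid genes outside the set of 50 were nearer an even split by direction, but their larger differences were more often downward. Of 65 such genes measured in 6 lists, 34 (52.3%) were lower, where 45.5% of all genes were. Higher were 29 (44.6%), where 47.2% of all genes were, and 2 were equal. The median log2 difference was -0.025. At 1.2-fold, 3 (4.62%) were higher, against 11.2% of all genes, and 11 (16.9%) were lower, against 10.5%, but 1 of the 11 lay below background on both arrays. None was 1.5-fold higher, where 0.928% of all genes were, and 2, Cd36 and Lpcat3, were 1.5-fold lower, where 0.727% were. The Cd36 value in DMEM/F12 lay below background, and with it raised to background Lpcat3 alone remained past 1.5-fold.
Genes of fatty acid oxidation, the pathway that Cpt1a opens, were lower in 11 of 15 cases (73.3%), where 45.5% of all genes were. Higher were 3 and equal 1, and the median was -0.08. Most of these differences were small, with quartiles of -0.16 and -0.0125 and a range from -0.40 to 0.22. The 2 genes with the largest differences follow. Etfdh, which passes electrons from oxidation to ubiquinone, had a log2 value of 5.61 in DMEM against 5.21 in DMEM/F12, a difference of -0.40. Acaa2, a mitochondrial thiolase, had 8.53 in DMEM against 8.16 in DMEM/F12, a difference of -0.37. Known targets of the peroxisome proliferator-activated receptors (PPARs), which fatty acids activate, were lower in 6 of 7 cases (85.7%), where 45.5% of all genes were. Their median was -0.24, the value of a gene below background on both arrays, and it was -0.20 with values raised to background. Of the 7, 5 were above background, Cd36 among them in DMEM alone. All 5 are also counted elsewhere, Cpt1a and Plin2 in the set and the others in the lists of fatty acid uptake and oxidation.
In the list of fatty acid uptake, 5 of 8 genes (62.5%) were lower, where 45.5% of all genes were, and 3 were higher. Their median of -0.07 became 0.00 when the brightest cluster of each gene was used. Cd36, a scavenger receptor and fatty acid translocase, had 4.48 in DMEM against 3.67 in DMEM/F12, a difference of -0.81 that became -0.31 when the DMEM/F12 value was raised to background. Msr1, a scavenger receptor for modified lipoprotein, had 5.21 in DMEM against 4.89 in DMEM/F12, a difference of -0.32.

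The list of sterol uptake, transport and esterification had a median of 0.08, or 0.05 with values raised to background. Of its 12 measured genes, 7 (58.3%) were higher, where 47.2% of all genes were, 4 were lower and 1 was equal. Lipa, the lysosomal acid lipase that frees cholesterol from lipoproteins, had a log2 value of 9.61 in DMEM against 10.05 in DMEM/F12, 1.36-fold higher and close to the difference of Insig1. Cyp27a1, a mitochondrial enzyme that oxidizes cholesterol to a ligand of LXR, had 6.69 in DMEM against 6.40 in DMEM/F12, a difference of -0.29. The remaining lists had medians near 0. In glycerolipid synthesis, 6 of 11 genes had higher and 5 lower values (median 0.01), and after Lpcat3 its largest difference was that of Pcyt1a, the rate-limiting enzyme of phosphatidylcholine synthesis, with 7.01 in DMEM against 7.35 in DMEM/F12, or 0.34.
In lipolysis and lipid droplets, 6 of 10 genes had higher and 4 lower values (median 0.035). Cidec and Plin1 encode droplet proteins best known from fat cells. Cidec had 4.45 in DMEM against 4.18 in DMEM/F12, a difference of -0.27. Plin1 had 4.95 in DMEM against 5.14 in DMEM/F12, a difference of 0.19. Lipid-sensing nuclear receptors and their partners were higher in 4 of 9 cases and lower in 5, with a median of -0.01. The coactivator gene Ncoa1 had 7.52 in DMEM against 7.78 in DMEM/F12, a difference of 0.26. Ppard, the PPAR with the broadest expression, had 7.97 in DMEM against 8.18 in DMEM/F12, a difference of 0.21.

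**Figure D4:**
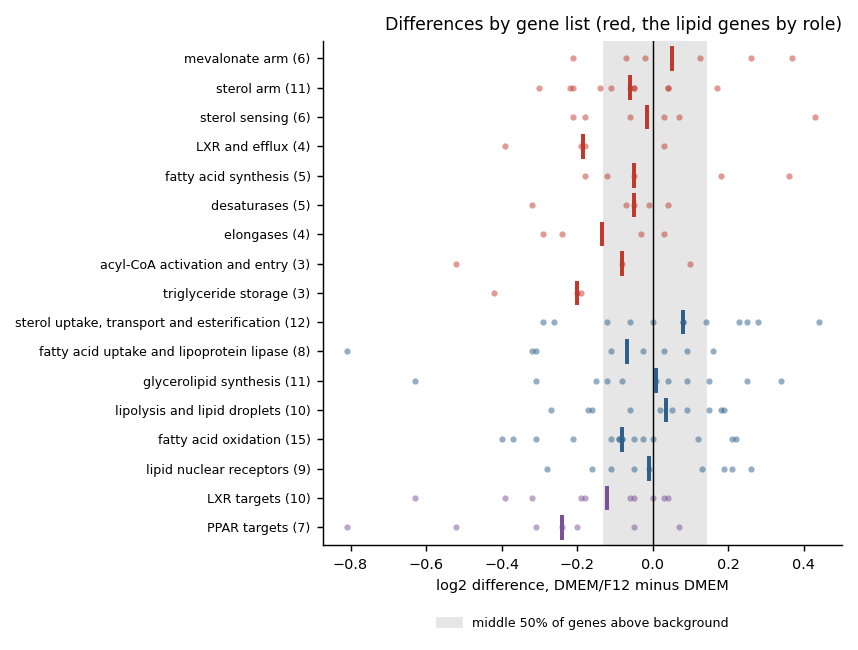
Log2 difference between the media (DMEM/F12 minus DMEM, x axis) of the single genes (dots) and the median (vertical bars) of each gene list (y axis, number measured in parentheses), red for the roles within the set of 50, blue for lists of other lipid genes and purple for target lists that share genes with these; the gray band is the middle 50% of genes above background. Medians run from -0.24 for PPAR targets to 0.08 for sterol uptake, transport and esterification, and those of storage and of LXR and efflux are the lowest within the set at -0.20 and -0.185. The median of the PPAR targets is the value of a gene below background on both arrays.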

How the data were processed

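For each of the 2 arrays the authors deposited log2 values, 28944 transcript clusters long, and the submitters' processing notes name Affymetrix Expression Console and Transcriptome Analysis Console. How probes were summarized, whether arrays were normalized to each other, the versions and the build are not given in these sources. No further scaling was applied to the deposited log2 values. The platform annotation gave 21789 clusters with 1 symbol, or 19938 genes, and each gene took the mean over its clusters. Values below the sensory receptor background were kept. The genes and lists were chosen with earlier results of these data known. All 50 genes could be named, and of each other list the 2 with the largest differences among those above background. The alternatives were median centring, quantile normalization, loess (span 0.3), values raised to background, genes above background, the brightest cluster, and 1.2-fold and 2-fold thresholds. Promoter motifs were searched in RefSeq windows of GRCm38.p6, and the planned protein comparison was not run. Python 3.11.15, numpy 2.4.6, pandas 2.3.3, scipy 1.17.1, statsmodels 0.14.6 and matplotlib 3.10.9 were used, and the steps were checked on simulated data.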

Additional observations from a re-analysis of the deposited data

How the results depend on the processing

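The count of lipid genes lower in DMEM/F12 was 32 after median centring, quantile normalization, loess and use of the brightest cluster, with medians of -0.08, -0.05, -0.05 and -0.06. After values under background were raised to that level, 29 were lower and 18 higher with a median of -0.05, while 31.2% of all genes were then lower and 66.0% higher, since a gene under background on both arrays then takes the 0.02 by which the backgrounds differ. With genes above background alone 29 were lower and 15 higher with a median of -0.06. At a 1.2-fold threshold 3 lipid genes were higher and 6 lower, and at 2-fold 0 and 0, like the 0 and 0 at 1.5-fold. With genes above background alone, the marker median was 0.17 for astrocytes (1 gene, Slc1a2) and 0.17 for neurons (2 genes), where it was -0.045 and -0.015 over all measured markers. Of 295 differences of single named genes under an alternative, 293 lay within 0.1 of the value given, and the exceptions were Scd1 at 0.02 and Cd36 at -0.31 with values raised to background. No paired analysis was possible because no medium was measured on more than 1 array. Median signs also turned for sterol sensing (0.0024 after loess), glycerolipid synthesis (-0.01 after median centring) and lipid nuclear receptors (0.06 for genes above background). With values raised to background they turned for desaturases and for adipocyte, astrocyte and neuron markers (0.02 each). The median of the microglia and macrophage markers, 0.005, became -0.015 after median centring and -0.0075 after quantile normalization. With 1 array per medium the spread between cultures is unknown, and differences of the sizes seen here cannot be told apart from differences between cultures, RNA preparations or arrays.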
